A study of Rattus norvegicus with 6 samples.

Results

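The genes described here make and use the products of arginine: the cationic amino acid transporter Slc7a2, the arginases Arg1 and Arg2, the inducible nitric oxide synthase Nos2, the argininosuccinate synthase Ass1, and the polyamine genes Odc1, Oaz1, Srm, Sms and Sat1. They were matched by symbol among the probe sets that name a single gene. All 10 were found, of 14217 genes named in this way, and each was read from its probe set of highest mean over the 6 arrays. Each array held RNA of CD11b+CD163+ cells, the perivascular and meningeal macrophages of the brain borders (BAMs), sorted by flow cytometry from the right hemisphere of 1 adult male Sprague-Dawley rat. The 3 controls (rats 63, 68 and 69) were non-ischemic, and the labels give them no other treatment. The 3 ischemic rats (64, 65 and 66) had the right middle cerebral artery occluded with a filament for 1 h and were studied after 16 h of reperfusion. The gate selects by CD163 and CD11b alone, so any other cell that bears both proteins would also be collected. The study checked separate sorts and found mostly CD11b+CD163+ cells, with a small share of granulocytes in those from ischemic brain. It found the CD163+ population at 16 h similar to that of controls.

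Arginine enters macrophages mainly through cationic amino acid transporters and stands at a branch point. Arginases split it into urea and ornithine, while nitric oxide synthases turn it into nitric oxide and citrulline, from which argininosuccinate synthase and lyase can rebuild arginine. Ornithine is decarboxylated to putrescine, the first polyamine, which is then extended to spermidine and spermine, and spermidine also supplies the hypusine residue of the translation factor eIF5A. The balance of arginase and inducible nitric oxide synthase is widely used to describe macrophage states.

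Values below are log2 values from RMA (robust multi-array average), the quantile-normalized summary of a probe set. A difference of 1 is a doubling of signal, and levels are not set against each other between genes. Changes were computed by limma's moderated linear model as ischemia minus control, each with its standard error (SE). The two-sided p-values were adjusted (Benjamini-Hochberg) across the 9928 genes that passed a filter on low signal. The words rose and fell are used where the adjusted p was under 0.01, the study's threshold, and other genes did not pass the test. The level of background was set at 7.01, which is the 90th percentile across 34 genes typical of other tissues, and the highest single value of those genes was 8.90.

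Before the results, some features of the arrays bear on all of them. Array medians ranged from 7.82 to 7.90, but the highest gene value was 13.85 in control 63 against 14.88 to 14.96 on the other arrays, and the part of this lower ceiling in the values of bright genes was not tested. The 3′ minus 5′ difference of the actin control probe sets was 0.058 to 0.073 in controls and 0.17 to 0.24 in ischemic rats. Of 9 border macrophage markers none passed the test, and all were well above background in both groups. Cd163, on which the cells were sorted, had a mean of 13.30 in controls and 13.84 in ischemic rats (adjusted p = 0.211), while the other 8 had a lower mean in ischemic rats and the median change of the 9 was -0.56. Of 9 monocyte markers, 8 rose. Ccr2 did not pass the test, with overlapping groups and means of 12.06 in controls and 12.49 in ischemic rats (adjusted p = 0.311). The summed level of the 9 (log2 of summed signals) was 13.85 to 14.08 in controls and 15.34 to 16.23 in ischemic rats. The monocyte list includes Vcan, Fn1 and Chi3l1, which the study lists among its top up-regulated genes. Vcan alone read 12.74 to 14.11 in ischemic rats. Of 9 granulocyte markers, 7 were tested and 4 rose (Fcnb, Lcn2, Mmp9 and S100a8). Csf3r (0.93, adjusted p = 0.0113) and S100a9 (2.19, adjusted p = 0.0119) were higher but did not pass the test. Cxcr2, above background in every rat, went the other way, by -0.50 (adjusted p = 0.179). Mmp8 lay within the background in every rat. The summed level of the 9 was 10.23 to 10.73 in controls and 11.43 to 12.93 in ischemic rats. Of 6 oligodendrocyte markers, 3 fell, and the list had a median change of -1.84 and a summed level of 12.94 to 13.99 in controls and 11.66 to 12.21 in ischemic rats. Of 6 microglia markers tested, P2ry12 fell, by 1.78, and 5 did not pass the test. The list went both ways, with a median change of -0.29. Its summed level was 14.55 to 15.04 in controls and 14.29 to 15.02 in ischemic rats. Control 63 also differed from controls 68 and 69 in other markers. Its summed level of endothelial markers was 12.95 against 10.99 and 11.04, and that of astrocyte markers 12.33 against 10.85 and 10.47. Its summed level of border macrophage markers was 16.24 against 17.32 and 17.13. The part of these differences in the results below was not tested. In a bulk sample a change in the share of cells that use a gene cannot be told apart from a change in RNA per cell.

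Of the 10 genes, 5 rose after ischemia (Arg1, Ass1, Slc7a2, Odc1 and Srm) and 0 fell. Over all genes tested 16.8% rose and 5.99% fell. Without control 63 or 68, or without ischemic rat 65 or 66, 3 of the 10 rose (Arg1, Slc7a2 and Srm). The other 5 (Arg2, Nos2, Sms, Sat1 and Oaz1) did not pass the test. The median change of the 10 was 0.98 against 0.10 for all genes tested. In 6 of the 10 every ischemic rat lay above every control, an order seen in 35.7% of all genes, and in 0 of the 10 below, an order seen in 19.9%. All 10 passed the filter, but Arg1, Arg2, Ass1 and Slc7a2 did so only with the help of the ischemic arrays, so their count has a direction built in. Arg1 and Ass1 are among the genes the study itself listed from these arrays, and their rise is not independent evidence. The same holds for the changes of Slc18b1, Vcan, Sdc1, Enpp3, Tgm2 and Spp1 given below.

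**Figure D1:**
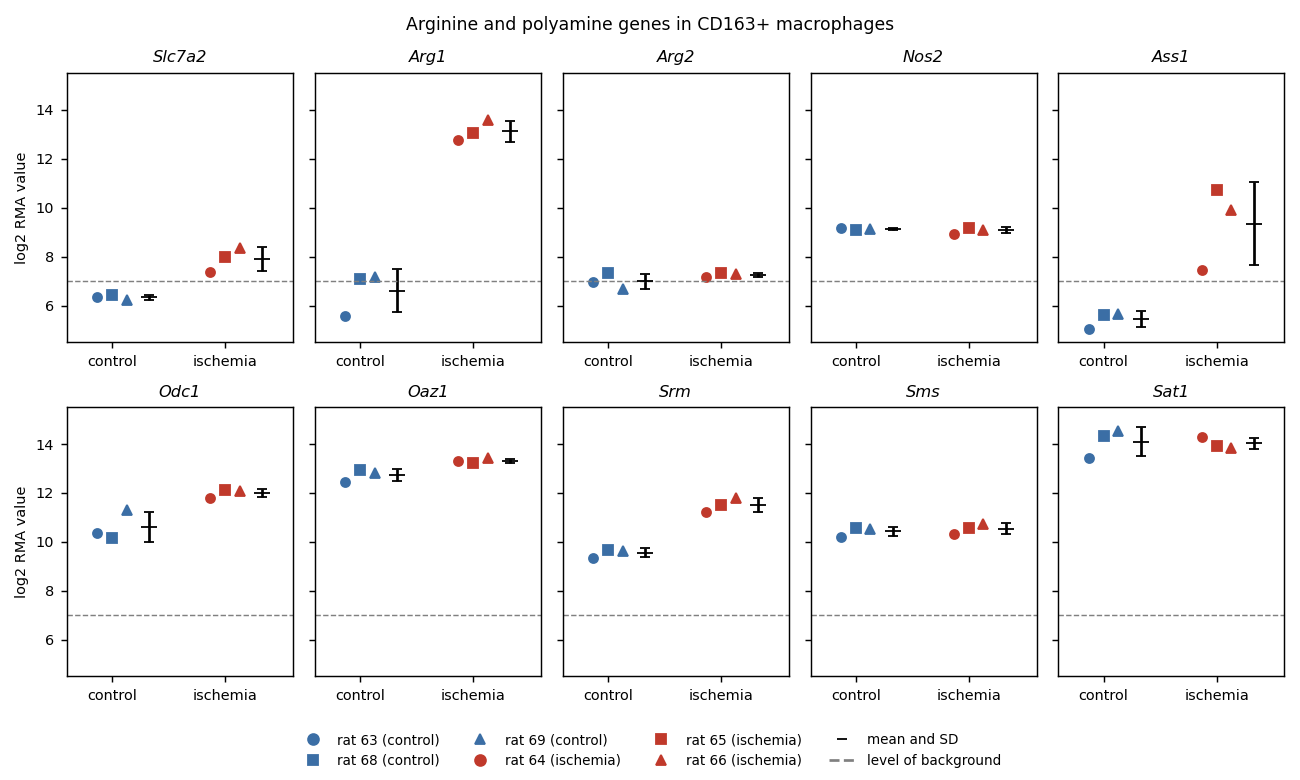
Log2 RMA value (vertical axis) of each of the 10 genes in the 3 control and the 3 ischemic rats, with 1 point per rat, the mean and SD beside the points, and the level of background as a dashed line. Arg1, Ass1, Slc7a2, Odc1, Srm and Oaz1 have every ischemic rat above every control, while Arg2, Nos2, Sms and Sat1 overlap.

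The arginine transporter among the genes was Slc7a2, known to be induced in activated macrophages. Arginine uptake itself was not measured. Slc7a2 read 6.34, 6.43 and 6.25 in control rats 63, 68 and 69, and 7.36, 7.97 and 8.34 in ischemic rats 64, 65 and 66. All controls lay within the background and all ischemic rats above its level, though below its highest single value. Slc7a2 rose by 1.55 (SE 0.23, 95% interval 1.02 to 2.09, adjusted p = 0.0019). Counted from the level of background, the rise of the ischemic mean was at least 1.84-fold. It was at least 1.58-fold without ischemic rat 66 and 2.22-fold without ischemic rat 64.

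Arg1, the cytosolic arginase, moved most of the 10. It read 5.59, 7.07 and 7.16 in controls 63, 68 and 69. The values of ischemic rats 64, 65 and 66 were 12.75, 13.05 and 13.59. Arg1 thus lay at or near the background in controls and far above it in every ischemic rat, with means of 6.61 ± 0.88 and 13.13 ± 0.42 (SD, n = 3 each). The change was 6.52 (SE 0.41, 95% interval 5.57 to 7.47, adjusted p = 0.000104). With controls below the level of background set to that level, the rise of the ischemic mean was at least 66.2-fold. It was at least 56.5-fold without ischemic rat 66 and 75.5-fold without ischemic rat 64. Arg1 and Ass1 were the members past the study's additional threshold of a log2 fold change over 2, which 1.63% of all genes passed in the upward direction.

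Arg2, the mitochondrial arginase, read 6.95, 7.32 and 6.68 in controls and 7.17, 7.34 and 7.28 in ischemic rats. The groups overlapped close to the level of background, and the change of 0.28 did not pass the test (SE 0.18, 95% interval -0.13 to 0.69, adjusted p = 0.238). Arg1 therefore moved by 6.24 more than Arg2, or by 5.90 with values below the level of background set to it, and the difference between the genes was larger in every ischemic rat than in any control (exact two-sided permutation test, p = 0.1). This p is the smallest that 3 rats against 3 allow, and it was also 0.1 after adjustment over the 6 pairs of genes compared.

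Nos2, which makes nitric oxide in activated macrophages, read 9.19, 9.07 and 9.14 in controls and 8.94, 9.17 and 9.10 in ischemic rats. Its 6 values lay within a narrow band above the level of background and the groups overlapped. The lowest was only just above the highest single background value of 8.90. How much of this signal is Nos2 was not tested. The change was -0.06 (SE 0.13, adjusted p = 0.713), with a 95% interval of -0.35 to 0.23. On this probe set the changes of Arg1 and Nos2 differed by 6.58, or 6.11 with Arg1 held at the level of background, again with every ischemic rat above every control (exact permutation p = 0.1, the smallest possible). A second probe set, annotated with Nos2-ps1 as well as Nos2 and so not used for the gene, was 1.86 higher in ischemic rats without overlap, which did not pass the test (adjusted p = 0.018). Differences from Nos2 given here therefore hold for the first probe set only.

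Ass1, which joins citrulline to aspartate on the way back to arginine, read 5.06, 5.62 and 5.66 in controls, all within the background. In ischemic rats 64, 65 and 66 it read 7.44, 10.71 and 9.89. Rat 64 stood well below the other ischemic rats but above all controls. Ass1 rose by 3.90 (SE 0.71, 95% interval 2.26 to 5.54, adjusted p = 0.00406), which from the level of background was at least 5.05-fold. The size and the call rested on single rats. Without ischemic rat 64 the change was 4.85 and the rise at least 9.79-fold, and without ischemic rat 65 they were 3.22 and at least 3.15-fold. Without any one of controls 63, 68 and 69 or of ischemic rats 65 and 66 the adjusted p lay between 0.0102 and 0.0206. Rat 64 also had the lowest summed level of monocyte markers (15.34) and of granulocyte markers (11.43) among ischemic rats, and their part in its Ass1 value was not tested. With the Ass1 controls held at the level of background, the change of Ass1 exceeded that of the Nos2 probe set by at least 2.40 (on the values as read 3.96, exact permutation p = 0.1, the smallest possible).

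The polyamine branch begins with ornithine decarboxylase, Odc1, a short-lived enzyme that sets the pace of putrescine synthesis, and goes on to spermidine synthase, Srm, and spermine synthase, Sms. Promoter sequences from RefSeq, 250 bases before to 50 after the start of each gene, were found for 6 of the 10 genes: Ass1, Odc1, Srm, Sms, Sat1 and Oaz1. Those of the 3 consecutive enzymes are shown because Odc1 and Srm rose while Sms did not pass the test. Coordinates are of build GRCr8, all on the plus strand, and sequences run 5′ to 3′. Capitals mark ACGTG, the core of hypoxia-response elements and part of the CACGTG E-box, and GCGTG, on either strand (CACGT and CACGC when read on the other).
Odc1, chr6:46058415-46058714: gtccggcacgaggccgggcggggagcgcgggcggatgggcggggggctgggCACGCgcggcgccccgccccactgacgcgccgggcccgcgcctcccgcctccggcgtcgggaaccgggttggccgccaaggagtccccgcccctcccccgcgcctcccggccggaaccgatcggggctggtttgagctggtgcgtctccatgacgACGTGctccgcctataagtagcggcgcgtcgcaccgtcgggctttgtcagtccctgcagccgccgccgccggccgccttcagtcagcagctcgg
Srm, chr5:164308752-164309051: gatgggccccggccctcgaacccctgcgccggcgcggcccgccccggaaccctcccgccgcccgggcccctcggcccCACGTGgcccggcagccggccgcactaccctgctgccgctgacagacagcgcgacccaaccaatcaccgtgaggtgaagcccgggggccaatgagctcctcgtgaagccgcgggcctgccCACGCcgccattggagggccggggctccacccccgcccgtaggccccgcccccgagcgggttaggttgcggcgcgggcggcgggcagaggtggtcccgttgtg
Sms, chrX:41331753-41332052: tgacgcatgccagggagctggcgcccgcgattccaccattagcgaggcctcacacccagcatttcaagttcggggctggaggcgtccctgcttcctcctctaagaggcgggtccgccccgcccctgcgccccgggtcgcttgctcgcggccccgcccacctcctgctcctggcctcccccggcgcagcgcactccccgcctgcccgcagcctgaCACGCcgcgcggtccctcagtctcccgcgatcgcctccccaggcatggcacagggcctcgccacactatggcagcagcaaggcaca
The promoters of Odc1, Srm and Sms are rich in G and C, at 77.3%, 77.7% and 71.7%, against a median of 51.7% over the promoters in the same table. ACGTG, counted on both strands, was in 3 of the 6 promoters found (Odc1, Srm and Oaz1) and in 19.3% of all 33469. GCGTG was in 5 of the 6 and in 29.7% of all, and the E-box CACGTG, which holds ACGTG on both strands, was in those of Srm and Oaz1 and in 6.42% of all. GGGCGG, the GC box, was in 5 of the 6 and in 33.1% of all. TATAAA was in 2 of the 6 and 14.2% of all, and TTCNNNGAA in 1 and 8.87%. TGATGNAA was in 0 of the 6 and 3.98% of all, and TGACGTCA in 0 and 1.83%. These are matches of letters within the window and show no binding.

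Odc1 read 10.37, 10.17 and 11.30 in controls 63, 68 and 69. The values of ischemic rats 64, 65 and 66 were 11.80, 12.11 and 12.09. Control 69 lay closer to the ischemic rats than to the other controls, but the groups did not overlap. Odc1 rose by 1.39 (SE 0.28, 95% interval 0.75 to 2.03, adjusted p = 0.00608), a fold of 2.62. Without control 63 or 68, or ischemic rat 65 or 66, the adjusted p was 0.0203 to 0.0261. When arrays were centred on ribosomal protein genes, the change was 0.96 and the adjusted p 0.0142.

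Srm read 9.35, 9.68 and 9.64 in controls and 11.22, 11.51 and 11.79 in ischemic rats. The gap between the groups was wider than the spread within either. Srm rose by 1.95 (SE 0.18, 95% interval 1.54 to 2.36, adjusted p = 0.000369), a fold of 3.86, and kept its call without any one rat.

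Sms read 10.20, 10.56 and 10.51 in controls and 10.32, 10.55 and 10.75 in ischemic rats. The groups overlapped, and the change of 0.11 did not pass the test (SE 0.16, 95% interval -0.26 to 0.49, adjusted p = 0.600). A second, dimmer Sms probe set read 8.36, 9.10 and 8.85 in controls and 8.19, 8.19 and 8.46 in ischemic rats, a change of -0.49 (SE 0.20) with an adjusted p of 0.09. Both Sms probe sets therefore missed the test, with opposite signs. On the brighter Sms probe set, the Srm value minus the Sms value was nearly constant within a group. Its SD was 0.015 in controls and 0.072 in ischemic rats. This difference was higher by 1.83 in ischemic rats (exact permutation p = 0.1, the smallest possible). Srm was not compared with the dimmer Sms probe set, whose values spread differently across rats, so these figures hold for the brighter one only.

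**Figure D2:**
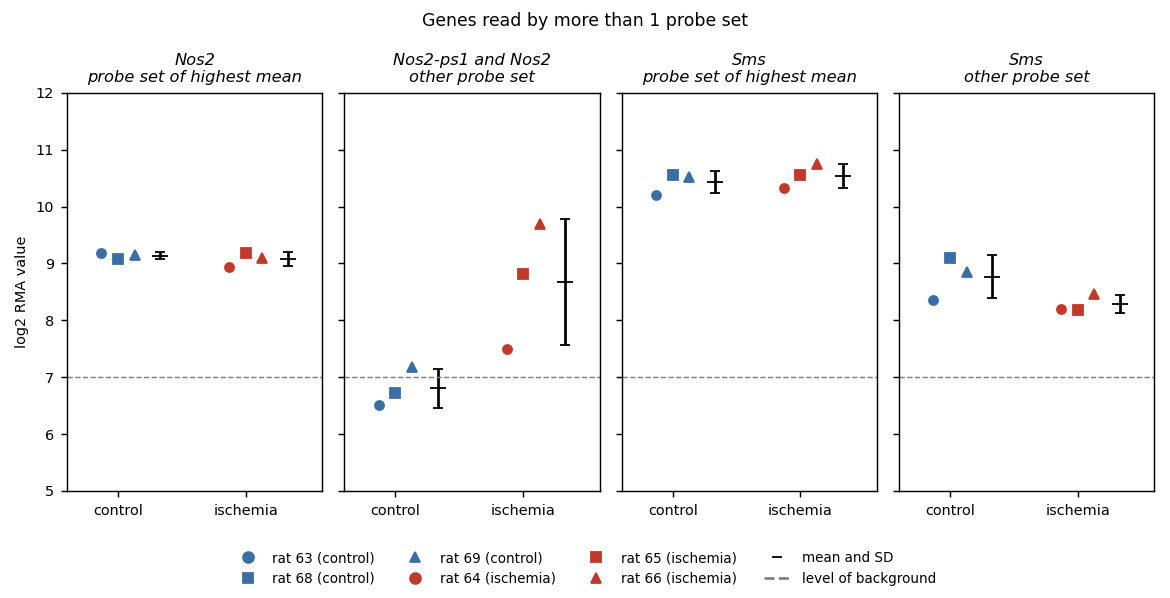
Log2 RMA value (vertical axis) of the probe sets that name Nos2 or Sms in each rat, with the mean and SD and the level of background as a dashed line. The probe set naming Nos2 alone lies between 8.94 and 9.19 in all rats, the one that also names Nos2-ps1 is higher in every ischemic rat than in any control, and the Sms probe sets have changes of 0.11 and -0.49.

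Sat1, the acetyltransferase that starts polyamine breakdown and export, read near the upper end of the range of the arrays. It read 13.44, 14.33 and 14.53 in controls and 14.29, 13.93 and 13.86 in ischemic rats. The lowest value was that of control 63, whose array had the lower ceiling and whose marker levels differed from those of the other controls. The part of either in its Sat1 value was not tested. The change was -0.08 (SE 0.28, 95% interval -0.72 to 0.57, adjusted p = 0.846), and without control 63 it was -0.41 (adjusted p = 0.106). Odc1 moved by 1.46 more than Sat1 (exact permutation p = 0.1, the smallest possible).

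Oaz1, the antizyme that binds ornithine decarboxylase and sends it to the proteasome, read 12.45, 12.94 and 12.80 in controls and 13.29, 13.23 and 13.41 in ischemic rats. No ischemic rat overlapped the controls, but the change of 0.58 missed the threshold (SE 0.16, 95% interval 0.22 to 0.94, adjusted p = 0.0203). Odc1 moved by 0.81 more than Oaz1 (exact permutation p = 0.1, the smallest possible), with control 69 at -1.50 for Odc1 minus Oaz1 just below ischemic rat 64 at -1.49. Without control 68 this difference was 0.48. Antizyme is controlled by ribosomal frameshifting, which an array of RNA does not read.

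Across the 5 genes that rose, ischemic rat 64 had the lowest ischemic value in each. It was also the lowest ischemic rat in 76.6% of all genes that rose, so the order of the rats is not particular to these genes.

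**Figure D3:**
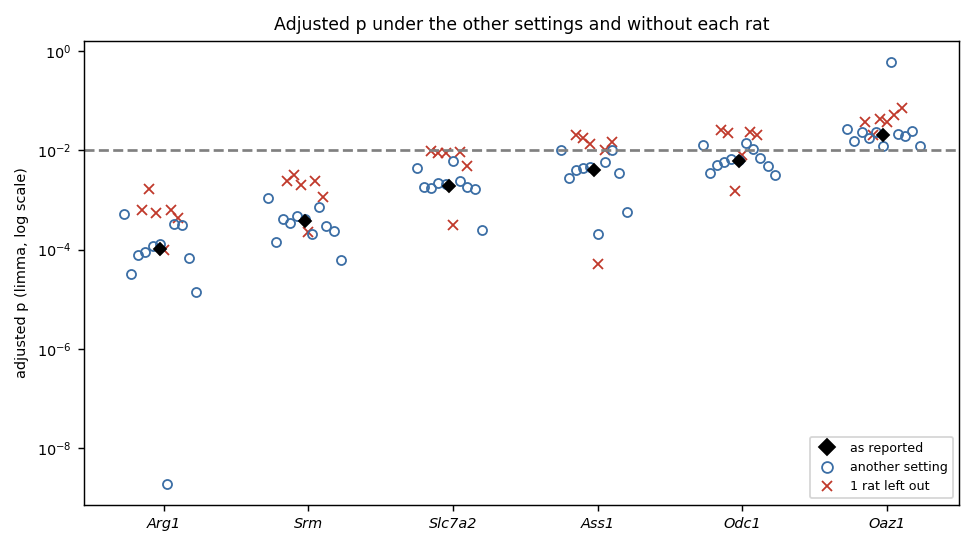
Adjusted p from limma on a log scale (vertical axis) for the 5 genes that rose and Oaz1, as reported (diamonds), under other settings (circles) and with 1 rat left out (crosses), with a dashed line at 0.01. The setting without moderation is not drawn. Arg1, Srm and Slc7a2 stay under the line at every point drawn, while Ass1 and Odc1 cross it at several and Oaz1 lies above it throughout.

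The wider pathway was described through 5 lists of other genes, of which 41 of 45 were on the array and 35 were tested. Of these, 7 rose (20%, against 16.8% of all genes) and 2 fell (5.71%, against 5.99%). The other 26 did not pass the test, and the median change of the 35 was 0.06 against 0.10 over all genes. The groups did not overlap in 15 with ischemia higher (42.9%, against 35.7% of all genes) and in 6 with ischemia lower (17.1%, against 19.9%). These shares are near the background, and the counts are no result about the lists.

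None of the 4 tested genes of arginine transport passed the test. The brightest were Slc3a2, the heavy chain shared by several amino acid transporters, with a change of 0.22 (adjusted p = 0.169), and Slc7a6, with a change of 0.37 (adjusted p = 0.0469).

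Of 8 genes of nitric oxide synthesis and the citrulline cycle 2 rose. Asl, the lyase that completes the step begun by Ass1, read 9.85, 9.38 and 9.91 in controls and 10.40, 11.19 and 11.31 in ischemic rats, a rise of 1.25 (SE 0.26, adjusted p = 0.00676). The call of Asl was lost without any one of controls 63, 68 and 69 or ischemic rats 65 and 66 (adjusted p of 0.0152 to 0.0280). Gch1, the entry enzyme for tetrahydrobiopterin, the cofactor of nitric oxide synthases, read 9.90, 9.54 and 10.41 in controls and 11.16, 11.29 and 11.61 in ischemic rats, a rise of 1.40 (SE 0.23, adjusted p = 0.00272), and lost its call without control 63 (0.0126) or ischemic rat 65 (0.0107) or 66 (0.0104). In both genes every ischemic rat lay above every control, as in 35.7% of all genes, an order that choosing genes by adjusted p favours. On second probe sets, tested over all probe sets, Asl changed by 1.15 (adjusted p = 0.00755) and Gch1 by 0.44 (adjusted p = 0.037). Nosip and Qdpr, the brightest that missed the test, changed by -0.20 (adjusted p = 0.371) and 0.06 (adjusted p = 0.844).

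Among 6 genes of ornithine, proline and creatine metabolism, Aldh18a1 rose, the synthase of the proline and ornithine precursor pyrroline-5-carboxylate. It read 8.61, 8.52 and 8.25 in controls and 10.24, 10.54 and 10.74 in ischemic rats. This was a rise of 2.04 (SE 0.17, adjusted p = 0.000272) with no overlap, as in 35.7% of all genes. Oat, which links ornithine to the same intermediate, changed by 0.38 (adjusted p = 0.0439), and Gamt, of creatine synthesis, by -0.70 (adjusted p = 0.0156). Without ischemic rat 64 Gamt passed the test at -0.88 (adjusted p = 0.0029). It also did with arrays centred on ribosomal protein genes (-1.12, adjusted p = 0.0036) and with quantile normalization repeated (-0.83, adjusted p = 0.0063). With array weights it did so at -0.82 (adjusted p = 0.0019). Slc25a15 and Gatm fall outside the rule for named genes and were chosen after their values were seen. With every probe set tested, their brightest ones missed the threshold, at 0.49 (adjusted p = 0.0362) and -0.71 (adjusted p = 0.0557). A dimmer one of each passed it, at 0.77 (adjusted p = 0.00362) and -0.81 (adjusted p = 0.00218). A further Slc25a15 probe set missed it at 0.60 (adjusted p = 0.0705).

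Of 11 further genes of polyamine synthesis and turnover, 1 rose and 1 fell. Mtap, which clears the methylthioadenosine that spermidine and spermine synthases release, read 10.56, 10.45 and 10.34 in controls and 11.76, 11.87 and 11.63 in ischemic rats, a rise of 1.31 (SE 0.13, adjusted p = 0.000467). Sat2, named for its likeness to Sat1, read 9.67, 10.33 and 10.49 in controls and 9.03, 8.66 and 9.02 in ischemic rats, a change of -1.26 (SE 0.23, adjusted p = 0.00374). The call of Sat2 was lost without control 68 or 69 or ischemic rat 65 or 66 (adjusted p of 0.0105 to 0.0175). Neither the groups of Mtap nor those of Sat2 overlapped, where 35.7% of all genes lay higher without overlap and 19.9% lower. Mat2a, which makes the methyl donor from which the aminopropyl groups come, changed by -0.17 (adjusted p = 0.535), and the spermine oxidase Smox by 0.14 (adjusted p = 0.579).

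Among 6 genes of polyamine transport and hypusination 3 rose, namely Eif5a, the substrate of hypusination, and its enzymes Dhps and Dohh, where 16.8% of all genes rose. The related Eif5a2 was too dim to be tested. Eif5a read 11.84, 12.20 and 12.19 in controls and 12.82, 13.05 and 13.06 in ischemic rats, a rise of 0.90 (SE 0.15, adjusted p = 0.0029). Dhps, which moves the aminobutyl group of spermidine onto eIF5A, rose by 0.81 (SE 0.17, adjusted p = 0.0076), from values of 9.58, 10.12 and 10.05 to 10.57, 10.80 and 10.80. Dohh, which completes hypusine, rose by 0.95 (SE 0.16, adjusted p = 0.00317), from 9.71, 9.96 and 9.94 to 10.66, 10.70 and 11.11. None of the 3 overlapped between groups, where 35.7% of all genes lay higher without overlap. Their calls depended on single rats and on scaling. Dhps and Dohh lost theirs without any one of controls 63, 68 and 69 or ischemic rats 65 and 66, with an adjusted p of 0.0128 to 0.0338 for Dhps and 0.0101 to 0.0118 for Dohh, and Eif5a without ischemic rat 65 (0.0163) or 66 (0.0132). With arrays centred on ribosomal protein genes the adjusted p was 0.104 for Eif5a, 0.176 for Dhps and 0.0894 for Dohh. Slc18b1, a vesicular polyamine transporter, read 11.45, 11.31 and 11.34 in controls and 9.30, 7.20 and 8.47 in ischemic rats, a change of -3.04 (SE 0.45, adjusted p = 0.00171). The change of Slc18b1 was the widest in the 5 lists. Atp13a2, a lysosomal polyamine exporter, changed by 0.06 (adjusted p = 0.825) and Slc3a1 by -0.05 (adjusted p = 0.857).

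**Figure D4:**
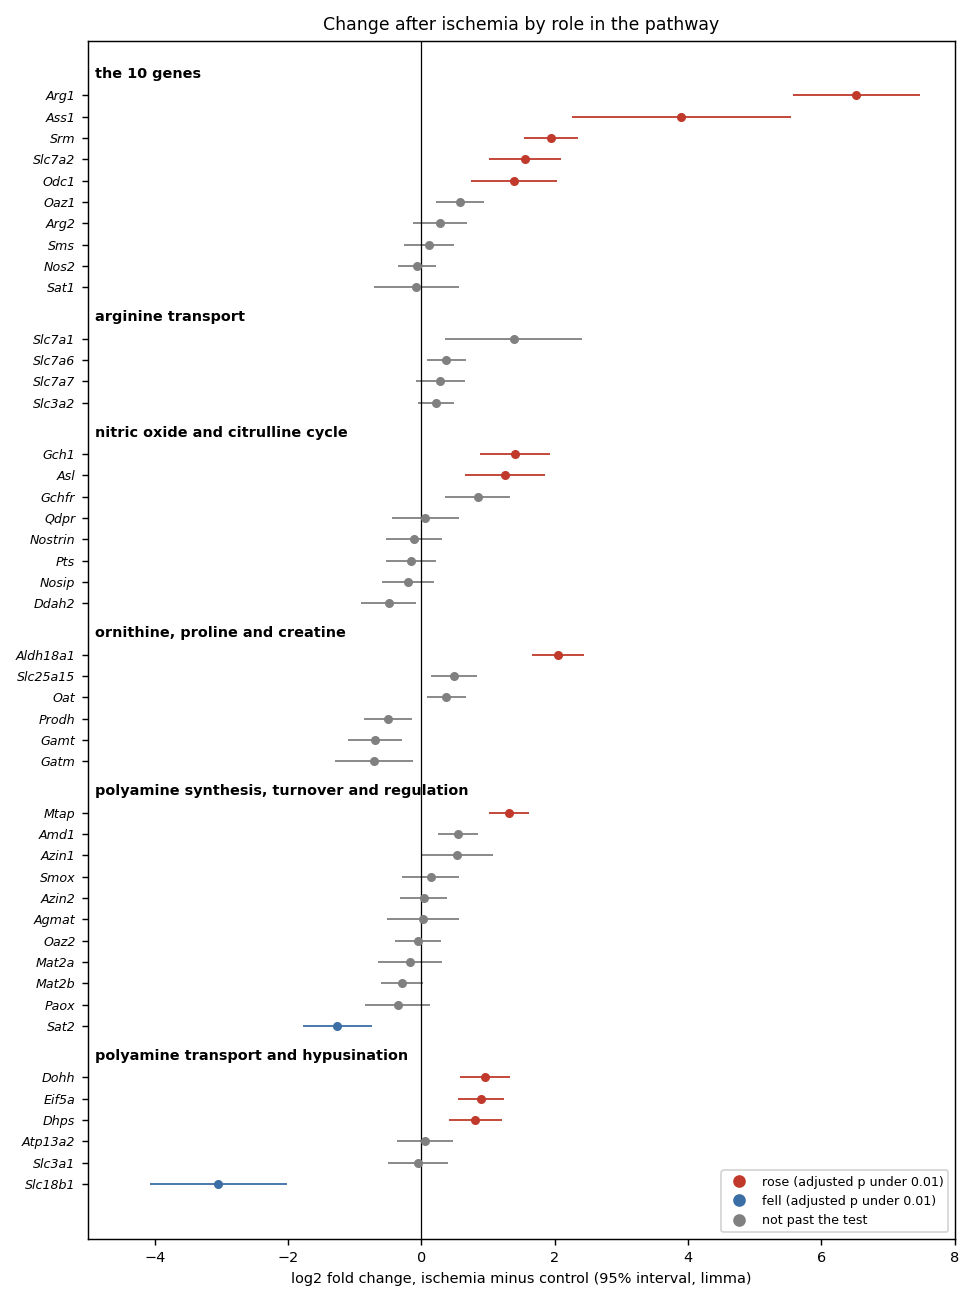
Log2 fold change of ischemia minus control (horizontal axis, with 95% intervals from limma) of the 10 genes and of the 35 tested genes of the 5 lists, grouped by role. Red points rose, blue points fell and grey points did not pass the test, with Arg1 at 6.52 far to the right of all others and Slc18b1 at -3.04 the lowest.

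The genes whose values followed Arg1 most closely were found by the root mean square difference of the 6 values after each gene was centred on its control mean, a measure that favours genes with an equally large rise. Over the 9928 genes tested these were the proteoglycan versican, Vcan, at 0.53, syndecan-1, Sdc1, at 0.67, the ectonucleotide pyrophosphatase Enpp3 at 0.86, transglutaminase 2, Tgm2, at 1.09 and osteopontin, Spp1, at 1.11. Vcan read 6.67, 6.83 and 6.78 in controls and 12.74, 13.65 and 14.11 in ischemic rats, with the same order of ischemic rats as Arg1. It is also one of the monocyte markers above. Sdc1, Enpp3, Tgm2 and Spp1 also had every ischemic rat above every control, as did 35.7% of all genes. Picking genes by closeness to Arg1 builds this in and favours a like order of rats. Neither is a separate result.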

How the data were processed

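The authors summarized the probes with RMA, and the values they deposited are on the log2 scale. They come from Affymetrix GeneChip Rat Genome arrays after a 3′ amplification of RNA from sorted cells, 1 array per rat. The submitters' processing notes name limma 3.18 and R 3.3.1. The deposited table held 31099 probe sets, of which 57 were controls, 20826 were annotated with 1 symbol, 436 with several and 9780 with none. Of the single symbols 20758 were found in the RefSeq gene table of GRCr8 and 0 were updated. The array files give no coordinates.

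The probe set of highest mean stood for its gene. A gene had to exceed 7.16, the 40th percentile of all values, on 3 or more arrays, which left 9928 genes. These were fitted in limma 3.58.1 (R 4.3.3; lmFit, then eBayes) without covariates, over 3 control and 3 ischemic arrays, with Benjamini-Hochberg adjustment. Groups came from the labels and replicates were separate rats. Pairs of genes were compared by exact permutation over rats. Arrays have no depth in reads, and precision is limited by the number of rats. The fit was first checked on simulated data.

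The 10 genes and the lists of pathway and marker genes were chosen with earlier results of these data known. The text names the 10 genes, every list gene at an adjusted p under 0.01, the 2 of highest mean in each list that missed it, the 5 genes nearest to Arg1, and markers beside a result. Genes named outside this rule are marked. The alternatives covered the filter, the probe set, the scaling, the moderation, array weights, the threshold and leaving out each rat.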

Additional observations from a re-analysis of the deposited data

Results flagged for a closer look

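A probe set annotated with both Nos2-ps1 and Nos2 was outside the comparisons because it names more than 1 gene, and it was picked out because it carried a difference there. It read 6.51, 6.73 and 7.18 in controls 63, 68 and 69 and 7.49, 8.81 and 9.69 in ischemic rats 64, 65 and 66. Every ischemic rat lay above every control, with means of 6.81 ± 0.34 and 8.67 ± 1.11 (SD, n = 3 each). The change was 1.86 (SE 0.48), with an adjusted p of 0.018 by limma over all probe sets kept, which misses the threshold of 0.01. The probe set that names Nos2 alone changed by -0.06. Which of its 2 named genes the first probe set read cannot be told apart, and whether it differs from the other was not tested.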

How the results depend on the processing

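Arg1, Srm, Aldh18a1 and Slc18b1 kept their direction and call under all alternatives run at the threshold of 0.01 without a fold requirement but the fit without moderation, as did Slc7a2 except that a filter at the 60th percentile removed it from the test. With no filter, and with the filter at the 60th percentile, 3 of the 10 genes rose. In the first case Ass1, Odc1, Asl and Dhps missed the threshold. In the second Arg2, Ass1 and Slc7a2 were not tested, which left 7 of the 10 in the test. Without moderation 0 of the 10 rose, and over all genes 0 rose and 0 fell, with a lowest adjusted p of 0.01014, while 4478 genes and 6 of the 10 had an unadjusted p under 0.05. With a log2 fold change beyond 2 also required, 2 of the 10 rose (Arg1 and Ass1, so that Srm, Slc7a2 and Odc1 no longer counted), and over all genes 162 rose and 58 fell. At an adjusted p under 0.05, 2722 rose and 1377 fell. Testing every probe set gave 2498 that rose and 1261 that fell. Robust moderation ended the call of Ass1 (adjusted p = 0.01002). Array weights gave 1309 genes that fell, and Nos2 then changed by 0.013 and Atp13a2 by -0.031.

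Scaling moved all genes. The median change was 0.10 as deposited, -0.32 with arrays centred on ribosomal protein genes and 0.017 with quantile normalization repeated. Ribosomal centring left 397 genes that rose against 1360 that fell, and 1664 against 595 as deposited. It turned the signs of Sms (-0.31), Atp13a2 (-0.37), Oat (-0.051), Qdpr (-0.37), Slc3a2 (-0.21), Slc7a6 (-0.055) and Smox (-0.29), and ended the calls of Odc1, Asl, Gch1, Mtap, Dhps, Dohh and Eif5a. Repeated quantile normalization gave 927 that fell, ended the calls of Odc1 (adjusted p = 0.0106) and Asl (0.0165) so that 4 of the 10 rose, and turned Sms (-0.035), Atp13a2 (-0.10), Qdpr (-0.041) and Smox (-0.038). The mean of the probe sets turned Sms (-0.19). The cause was not tested.

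Leaving out 1 rat at a time left 3 to 5 of the 10 that rose, the lowest without control 63, control 68, ischemic rat 65 or ischemic rat 66, which lost Ass1 and Odc1. Over all genes 681 to 1564 rose and 166 to 816 fell, with the fewest in both without ischemic rat 65. The changes that turned sign ranged from -0.11 to 0.0044 for Nos2, -0.41 to 0.14 for Sat1, -0.11 to 0.16 for Atp13a2, -0.29 to 0.054 for Mat2a, -0.11 to 0.31 for Qdpr, -0.21 to 0.10 for Slc3a1 and -0.021 to 0.33 for Smox, none past the test. No paired analysis was possible because the groups share no rat number.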

Other observations

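Slc7a1, the main constitutive arginine transporter of many cells, falls outside the rule for named genes and was chosen after its values were seen. It read 11.07, 9.06 and 9.61 in controls 63, 68 and 69 and 11.08, 11.52 and 11.28 in ischemic rats 64, 65 and 66. Its change of 1.38 (SE 0.45) did not pass limma's test (adjusted p = 0.0382), and control 63 lay only just below the lowest ischemic rat. The summed level of endothelial markers was between 10.99 and 12.95 in controls and between 11.06 and 11.42 in ischemic rats, with the highest value in control 63, and its part in the Slc7a1 values was not tested. The 3 Slc7a1 probe sets changed by 1.38, 1.42 and 1.03. Amd1, which makes the aminopropyl donor of polyamine synthesis, also chosen after its values were seen, changed by 0.55 and narrowly missed the test (adjusted p = 0.011).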
